A study of Mus musculus with 17 samples.

Results

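The 7 genes S100a8, S100a9, S100a1, S100a4, S100a6, S100a10 and S100a11 encode S100A proteins, and each was taken by its symbol. All 7 have a row among the 13769 genes of the deposited table. RNA sequencing was done on myeloid cells sorted from the brain of C57bl6/j mice, as populations labelled µ and TAµ, names that the labels leave unexplained. Both transplanted groups, µ with 3 libraries and TAµ with 3, are from BU-treated mice at 3 months after they were given GFP Lin- cells. The adult control µ group has 3 libraries, from animals aged 5 months, and the P10 TAµ group has 8, from animals at postnatal day 10. What BU stands for is not spelled out, nor whether GFP was used in the sort, so host cells may be present in the transplanted groups. The series sets brain myeloid cells of mice that received a graft beside microglia, the macrophages that reside in the brain.

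S100 proteins are small proteins with a pair of EF-hand motifs that bind calcium, and most work as dimers. S100A8 and S100A9 form calprotectin, which neutrophils store in their cytosol and release to withhold zinc and manganese from microbes and to signal through TLR4. Monocytes make them too, and they are usually low in resting microglia. S100A4, S100A6, S100A10 and S100A11 act mostly inside cells on the cytoskeleton and on annexins, while S100A1 and S100B are known from muscle and from glia.

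All 7 genes lie on mouse chromosome 3 in GENCODE vM21 on GRCm38, the mm10 build named in the submitters' processing notes. S100a8 spans chr3:90668978-90670035 on the plus strand and S100a9 chr3:90692632-90695721 on the minus strand, with 22596 bases between them. S100a1 is at chr3:90511034-90514392 on the minus strand, 42 bases from the head of S100a13 on the plus strand. S100a4 is at chr3:90603771-90606045 and S100a6 at chr3:90612882-90624181, both on the plus strand. S100a11 at chr3:93520488-93526287 and S100a10 at chr3:93555080-93564643, also on the plus strand, stand 2.82 megabases beyond S100a9. Each has 3 exons in its principal transcript. S100a4 overlaps Gm42674 in this annotation, so its count may depend on how shared reads were assigned. The strand setting of the counting is not given in the sources used here.

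The promoters of S100a8, S100a9 and S100a4 are shown because these are the 3 members that differed between the control groups. Each sequence is 300 bases from RefSeq on GRCm38.p6, from upstream of the annotated start to just past it, read 5′ to 3′ on the gene's strand. Their positions are chr3:90668821-90669120 for S100a8, chr3:90695672-90695971 for S100a9 and chr3:90603520-90603819 for S100a4. Capitals mark matches on either strand to any of 3 motifs. The first is the box that positions transcription starts, searched as TATAAA. The second is the site of C/EBP factors, searched as TTNNGNAA. The third is the site of PU.1, searched as GAGGAA.
S100a8: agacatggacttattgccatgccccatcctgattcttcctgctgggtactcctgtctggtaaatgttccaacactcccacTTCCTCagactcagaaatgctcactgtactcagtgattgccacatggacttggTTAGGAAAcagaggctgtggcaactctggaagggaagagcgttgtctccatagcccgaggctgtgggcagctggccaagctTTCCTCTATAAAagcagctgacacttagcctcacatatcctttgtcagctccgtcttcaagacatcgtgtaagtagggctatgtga
S100a9: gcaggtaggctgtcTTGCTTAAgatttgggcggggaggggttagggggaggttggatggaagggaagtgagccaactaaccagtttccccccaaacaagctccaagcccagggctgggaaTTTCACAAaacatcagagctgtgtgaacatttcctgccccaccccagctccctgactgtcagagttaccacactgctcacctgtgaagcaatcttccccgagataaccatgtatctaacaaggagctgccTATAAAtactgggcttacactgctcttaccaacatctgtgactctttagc
S100a4: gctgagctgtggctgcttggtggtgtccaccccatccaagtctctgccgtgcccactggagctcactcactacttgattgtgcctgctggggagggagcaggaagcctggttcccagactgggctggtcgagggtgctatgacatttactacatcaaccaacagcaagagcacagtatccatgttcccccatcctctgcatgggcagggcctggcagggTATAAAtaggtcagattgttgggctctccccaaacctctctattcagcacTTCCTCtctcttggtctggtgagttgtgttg
In the S100a8 window the match to TATAAA at bases 221 to 226 directly follows a PU.1 match at bases 215 to 220. The S100a9 window has its match to TATAAA at bases 251 to 256 and C/EBP matches at bases 15 to 22 and 121 to 128. That TATAAA match begins on the annotated start, at distance 0, where those of S100a8 and S100a4 begin at -30 and -31. The S100a4 window has a match to TATAAA at bases 220 to 225 and no match to the C/EBP letters. Its PU.1 match at bases 270 to 275 lies past the annotated start. Of the 6 members with a promoter sequence, 3 held TATAAA, against 13.6% of all 32851 promoters of this length. The C/EBP letters were found in 2 of the 6, against 40.7% of all promoters, and the PU.1 letters in 3 of the 6, against 28.3%. A match is a run of letters and does not show that a factor binds there.

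Values per library were not analysed here. The deposited table gives each gene's average log2 expression and its log2 fold changes between groups, from which a log2 level in each group was derived with its standard error (SE). Levels are compared within a gene and not between genes. A fold change is the first-named group minus the second on the log2 scale, ± a recovered SE. All 17 libraries share the estimate of a gene's spread, so the SE of a group is not that group's own scatter. "Higher", "lower", "rose", "fell" and "called" are used of genes at an adjusted p of 0.05 or less, from the authors' limma fit with Benjamini-Hochberg adjustment over all genes. In bulk RNA, fewer cells of a type and less RNA per cell cannot be told apart. Batches of preparation are not labelled, and the controls differ from the transplanted mice in age or treatment, so these cannot be told apart from the group.

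Microglia markers had rows for 10 of 10 genes, with a summed log2 level from 12.98 in transplanted TAµ to 14.15 in transplanted µ. In transplanted TAµ against transplanted µ, 9 of these 10 fell and 0 rose in the authors' deposited table. Of all genes, 2.93% fell and 3.56% rose there. The derived levels reached down to -5.07 in adult control µ, -4.27 in P10 TAµ, -4.88 in transplanted µ and -4.70 in transplanted TAµ at the lowest 0.1% of genes. All levels of the 7 members stood above these values, as do those of nearly all genes. By average expression S100a4 stood at percentile 17.3 of all genes, S100a10 at 20.2, S100a11 at 23.5 and S100a6 at 25.4. Large fold changes of these genes therefore start from low levels.

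Across the 4 groups the moderated F passed an adjusted p of 0.05 for 4 of the 7 members in the authors' deposited table, where 52.2% of all genes passed. These were S100a8, S100a1, S100a4 and S100a10. S100a9 had an adjusted p of 0.0507, S100a6 of 0.103 and S100a11 of 0.180 for F in the authors' deposited table.

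**Figure D1:**
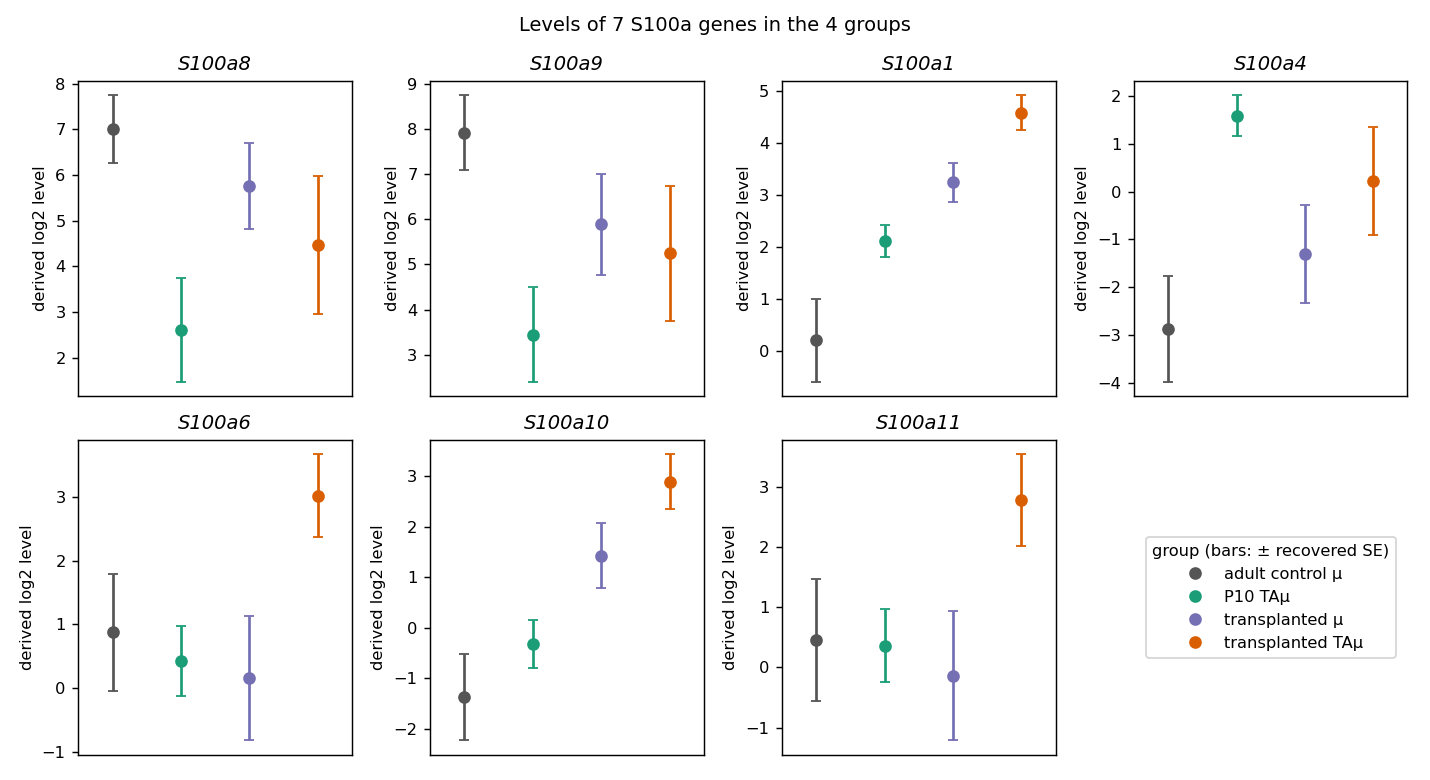
Derived log2 level of each of the 7 genes (vertical axis, log2 units) in adult control µ, P10 TAµ, transplanted µ and transplanted TAµ. Points are group levels and bars ± the recovered SE. S100a8 and S100a9 stand highest in adult control µ and lowest in P10 TAµ, S100a4 stands highest in P10 TAµ, and the other 4 genes stand highest in transplanted TAµ.

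The calprotectin genes differed between the control groups. The log2 level of S100a8 was 7.0 ± 0.74 in adult control µ, 5.76 ± 0.95 in transplanted µ, 4.46 ± 1.51 in transplanted TAµ and 2.61 ± 1.13 in P10 TAµ. The order for S100a9 was the same, with a log2 level of 7.92 ± 0.83 in adult control µ, 5.89 ± 1.12 in transplanted µ, 5.24 ± 1.5 in transplanted TAµ and 3.45 ± 1.04 in P10 TAµ. In P10 TAµ compared with adult control µ, S100a8 fell by 4.39 ± 1.35 (adjusted p = 0.0179) and S100a9 by 4.47 ± 1.33, with an adjusted p of 0.0147 in the authors' deposited table. These are 20.9-fold and 22.2-fold lower levels in the authors' deposited table. With S100a4, which rose, 3 of the 7 members were called in this comparison, against 35.7% of all genes in the authors' deposited table. By direction, 2 fell, against 12.5% of all genes, and 1 rose, against 23.2% in the authors' deposited table.

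No neighbours in that order differed beyond their spread for either gene. Transplanted µ differed from adult control µ by -1.24 ± 1.2 for S100a8 (adjusted p = 0.479) and by -2.03 ± 1.39 for S100a9 (adjusted p = 0.303) in the authors' deposited table. Their 95% intervals ran from -3.76 to 1.29 and from -4.95 to 0.89. Transplanted TAµ differed from transplanted µ by -1.30 ± 1.78 for S100a8 (adjusted p = 0.713) and by -0.64 ± 1.88 for S100a9 (adjusted p = 0.877) in the authors' deposited table. Against P10 TAµ, transplanted TAµ differed by 1.85 ± 1.88 for S100a8 (adjusted p = 0.493) and by 1.80 ± 1.83 for S100a9 (adjusted p = 0.492) in the authors' deposited table. Transplanted µ stood above P10 TAµ by 3.15 ± 1.47 for S100a8 (adjusted p = 0.138) and by 2.44 ± 1.53 for S100a9 (adjusted p = 0.268) in the authors' deposited table, neither of them called.

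The spread between libraries, which the fit pools over the groups, was wide for this pair. For transplanted TAµ against P10 TAµ the SE of S100a8 exceeded that of 99.6% of genes and the SE of S100a9 that of 99.4%, where the median SE of all genes was 0.58. For P10 TAµ against adult control µ they exceeded 97.2% and 96.7% of genes, with a median SE of 0.49. A difference of several log2 units in transplanted cells is therefore inside the intervals.

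Other neutrophil genes moved with S100a8 and S100a9. Of 20 neutrophil markers, 14 had a row. In P10 TAµ against adult control µ 8 of the 14 fell and 0 rose in the authors' deposited table. Of all genes, 12.5% fell and 23.2% rose there. The median of the 14 was -2.68, beside a median of 0.41 over all genes. Lcn2, which encodes the siderophore-binding protein lipocalin 2, fell by 4.58 ± 1.23 (adjusted p = 0.00837) and Camp, which encodes the antimicrobial peptide cathelicidin, fell by 4.33 ± 1.21, with an adjusted p of 0.0104 in the authors' deposited table. Ngp and Ltf, further genes of neutrophil granules chosen after their values were seen, fell by 4.24 ± 1.22 and by 4.19 ± 1.22 in the authors' deposited table. Csf3r, the receptor gene for G-CSF, which microglia also express, fell by 2.22, with an adjusted p of 5e-08 in the authors' deposited table. Not all of the markers followed. Mpo, a primary granule gene, differed by 1.42, Stfa2l1 by 4.06 and the chemokine receptor gene Cxcr2 by 0.40, none of them called in the authors' deposited table, all 3 chosen after their values were seen.

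The log2 of the summed level of the 14 markers was 9.03 in adult control µ, 8.22 in transplanted µ, 7.33 in transplanted TAµ and 6.55 in P10 TAµ, the order found for S100a8 and S100a9. Most of that sum is Csf3r, which is not specific to neutrophils, with log2 levels of 8.25, 7.47, 6.90 and 6.03 in the same order of groups. The median log2 level of the 14 markers was 2.98, 1.58, 0.93 and 0.32 in that order. Ly6g, Elane, Prtn3, Ctsg, Fcnb and Trem1 were not analysed here. In transplanted µ against adult control µ 1 of the 14 fell, Csf3r, against 10.5% of all genes in the authors' deposited table. In transplanted TAµ against P10 TAµ 1 rose, Csf3r, and 1 fell, Stfa2l1, against 10.5% and 15.3% of all genes in the authors' deposited table. In transplanted TAµ against adult control µ 1 fell, against 13.4% of all genes. In transplanted µ against P10 TAµ 1 rose and 2 fell, against 7.63% and 12.6% of all genes. Between the transplanted fractions 0 were called, against 6.49% of all genes in the authors' deposited table. The part of neutrophils or their RNA in the S100a8 and S100a9 levels was not tested.

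**Figure D2:**
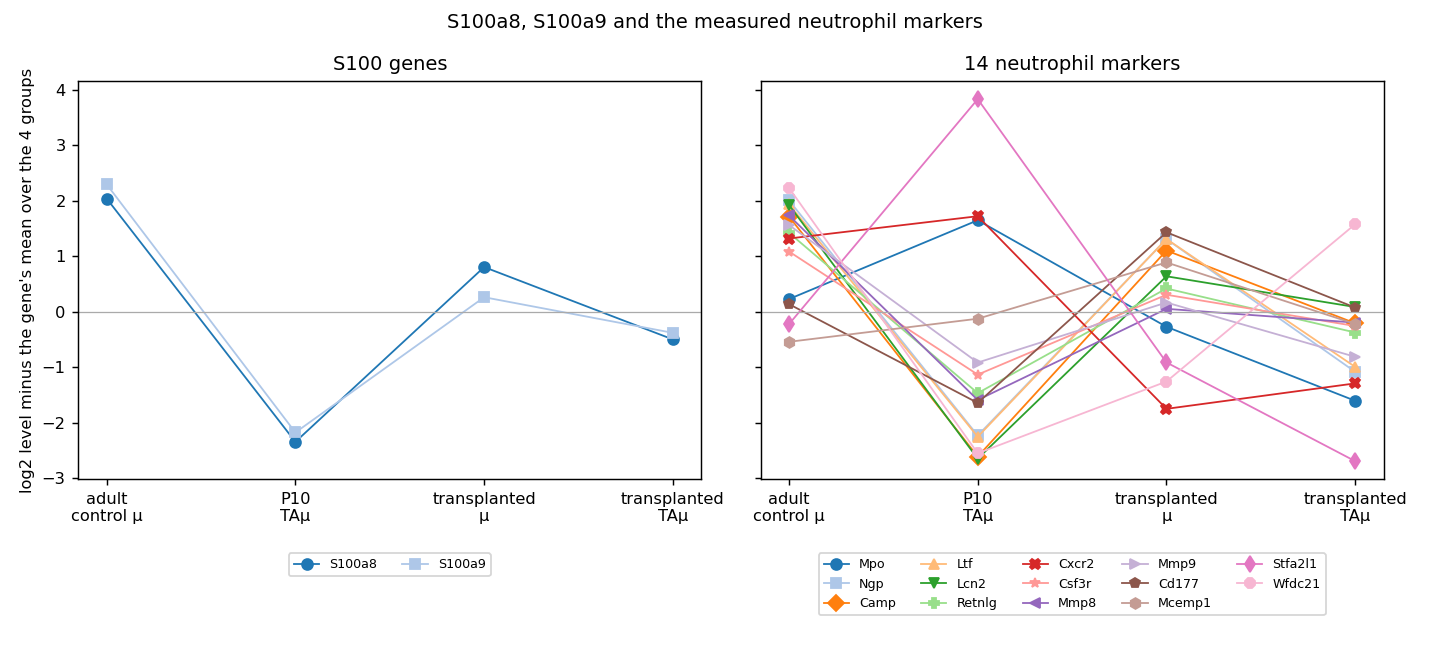
Log2 level of each gene minus its own mean over the 4 groups (vertical axis, log2 units), for S100a8 and S100a9 on the left and the 14 measured neutrophil markers on the right. Lines join the groups of 1 gene to guide the eye. Camp and Lcn2 trace the course of S100a8, while Stfa2l1, Mpo and Cxcr2 stand highest in P10 TAµ.

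Of 12 genes linked to neutrophil cytosol and defence, 10 had a row. Of these, 4 are also on the neutrophil marker list: Lcn2, Camp, Ngp and Ltf, whose falls are given above. In P10 TAµ against adult control µ 7 fell, these 4 among them, and 1 rose in the authors' deposited table. There 12.5% of all genes fell and 23.2% rose. The leukotriene synthesis genes Alox5 and Alox5ap fell by 1.82 ± 0.36 and by 1.2 ± 0.29, and Slpi, a protease inhibitor gene, rose by 4.26 ± 1.12 in the authors' deposited table. In transplanted TAµ against P10 TAµ 2 rose, Lyz2 by 3.26 and Alox5 by 1.43 ± 0.44, and 0 fell in the authors' deposited table. Lyz2, the lysozyme gene of macrophages and neutrophils, also rose by 1.11 ± 0.25 in transplanted µ against adult control µ, with Alox5 by 1.23 ± 0.34 in the authors' deposited table. Between the transplanted fractions 2 rose in TAµ, Lyz2 and Il1b, and 2 fell, Alox5ap and Alox5 in the authors' deposited table. Of all genes, 10.5% rose and 15.3% fell in transplanted TAµ against P10 TAµ, and 3.56% rose and 2.93% fell between the fractions. In transplanted TAµ against adult control µ 2 rose and 1 fell, against 16.7% and 13.4% of all genes. In transplanted µ against P10 TAµ 4 rose and 1 fell, against 7.63% and 12.6% of all genes in the authors' deposited table.

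Among transcription factors known to act on S100a8 and S100a9 in myeloid cells, 6 of 9 had a row. In P10 TAµ against adult control µ 2 fell and 0 rose in the authors' deposited table. Of all genes, 12.5% fell and 23.2% rose in this comparison. Klf4 fell by 2.15 ± 0.29 (adjusted p = 2.78e-05) and Cebpa, a factor of granulocyte development, by 0.87 ± 0.30, with an adjusted p of 0.0327 in the authors' deposited table. Klf4 also fell by 3.68 ± 0.58 in transplanted µ and by 3.32 ± 0.66 in transplanted TAµ against adult control µ in the authors' deposited table, with Cebpa falling by 1.30 ± 0.46 in the latter. These 3 comparisons share the adult control libraries. Cebpb differed by at most 0.23 in the 6 comparisons and Spi1, which encodes PU.1, by at most 0.25, with no call in the authors' deposited table. Stat3 fell by 0.87 ± 0.21 in transplanted TAµ against P10 TAµ, and no other factor was called there in the authors' deposited table. Between the transplanted fractions and in transplanted µ against P10 TAµ 0 of the 6 were called in the authors' deposited table. Of all genes, 6.49% and 20.3% were called in these.

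S100a1 was the member with most calls. It encodes a calcium sensor best known from heart and skeletal muscle. Its log2 level was 4.58 ± 0.33 in transplanted TAµ, 3.24 ± 0.38 in transplanted µ, 2.11 ± 0.31 in P10 TAµ and 0.20 ± 0.80 in adult control µ. In transplanted µ it rose by 3.03 ± 0.88 over adult control µ (adjusted p = 0.0217) in the authors' deposited table. It was the single call among the 7 members there, against 21.8% of all genes called, with 11.3% that rose and 10.5% that fell in the authors' deposited table. In transplanted TAµ it rose by 2.46 ± 0.45 over P10 TAµ (adjusted p = 0.00075) and by 4.37 ± 0.86 over adult control µ (adjusted p = 0.00121) in the authors' deposited table. Neighbours in the order of levels did not differ beyond the threshold: transplanted TAµ stood 1.34 ± 0.50 above transplanted µ (adjusted p = 0.121) in the authors' deposited table. Transplanted µ stood 1.12 ± 0.49 above P10 TAµ (adjusted p = 0.111), which stood 1.91 ± 0.85 above adult control µ (adjusted p = 0.0882) in the authors' deposited table. S100a13, the gene beside it, differed by between -0.77 and 0.43 in the 6 comparisons and was called in 0 of 6 in the authors' deposited table.

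S100a10 followed the same order of groups. Its protein pairs with annexin A2, tethers AHNAK and carries channels to the cell surface. Its log2 level was 2.89 ± 0.54 in transplanted TAµ, 1.43 ± 0.63 in transplanted µ, -0.32 ± 0.47 in P10 TAµ and -1.37 ± 0.86 in adult control µ. The gene is low here, at percentile 20.2 of all genes by average expression. It rose by 3.21 ± 0.72 in transplanted TAµ over P10 TAµ (adjusted p = 0.00336) and by 4.26 ± 1.01 over adult control µ (adjusted p = 0.00444) in the authors' deposited table. Transplanted µ stood 2.80 ± 1.06 above adult control µ (adjusted p = 0.0676) and 1.75 ± 0.79 above P10 TAµ (adjusted p = 0.124), neither of them called in the authors' deposited table. The transplanted fractions differed by 1.46 ± 0.83 (adjusted p = 0.315), TAµ minus µ, and the controls by 1.05 ± 0.98 (adjusted p = 0.420), P10 TAµ minus adult control µ in the authors' deposited table.

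S100a6 encodes calcyclin, which binds calcyclin-binding protein and annexins. Its log2 level was 3.02 ± 0.65 in transplanted TAµ, 0.87 ± 0.92 in adult control µ, 0.43 ± 0.55 in P10 TAµ and 0.15 ± 0.98 in transplanted µ. The level was highest in transplanted TAµ, and the other 3 groups lay within their errors. It rose by 2.59 ± 0.86 in transplanted TAµ over P10 TAµ (adjusted p = 0.0334) in the authors' deposited table. Against transplanted µ the difference was 2.86 ± 1.18 (adjusted p = 0.155) and against adult control µ 2.15 ± 1.13 (adjusted p = 0.157), neither called in the authors' deposited table. The other 3 pairs of groups differed by between -0.72 and -0.27, with adjusted p from 0.727 to 0.887 in the authors' deposited table.

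S100a11, a partner of annexin A1, had a like order of levels and no call. Its log2 level was 2.78 ± 0.77 in transplanted TAµ, 0.46 ± 1.02 in adult control µ, 0.37 ± 0.60 in P10 TAµ and -0.14 ± 1.07 in transplanted µ. Transplanted TAµ stood 2.42 ± 0.97 above P10 TAµ (adjusted p = 0.0747) in the authors' deposited table. Its recovered 95% interval ran from 0.38 to 4.46. The gene stood 2.93 ± 1.32 above transplanted µ (adjusted p = 0.196) and 2.33 ± 1.27 above adult control µ (adjusted p = 0.176) in the authors' deposited table. With fold changes centred on the median of all genes, S100a11 in transplanted TAµ against P10 TAµ reached 2.75 (adjusted p = 0.0444).

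In all, 3 of the 7 members rose in transplanted TAµ over P10 TAµ and 0 fell, against 25.7% of all genes called, with 10.5% that rose and 15.3% that fell in the authors' deposited table. The median of the members was 2.42, beside -0.33 over all genes. Over adult control µ 2 of the 7 rose in transplanted TAµ and 0 fell, against 30.1% of all genes called, with 16.7% that rose and 13.4% that fell in the authors' deposited table. The titles give the libraries of the transplanted fractions matching letters, and the variances behind the deposited p-values add up as in a fit that takes them as unpaired. Between the fractions limma called 0 of the 7, against 6.49% of all genes, with 3.56% that rose and 2.93% that fell, and 3 members had an unadjusted p under 0.05, against 22.5% of all genes in the authors' deposited table. In transplanted µ against P10 TAµ limma called 0 of the 7, against 20.3% of all genes, with 7.63% that rose and 12.6% that fell, and 4 had an unadjusted p under 0.05, against 34.5% in the authors' deposited table.

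**Figure D3:**
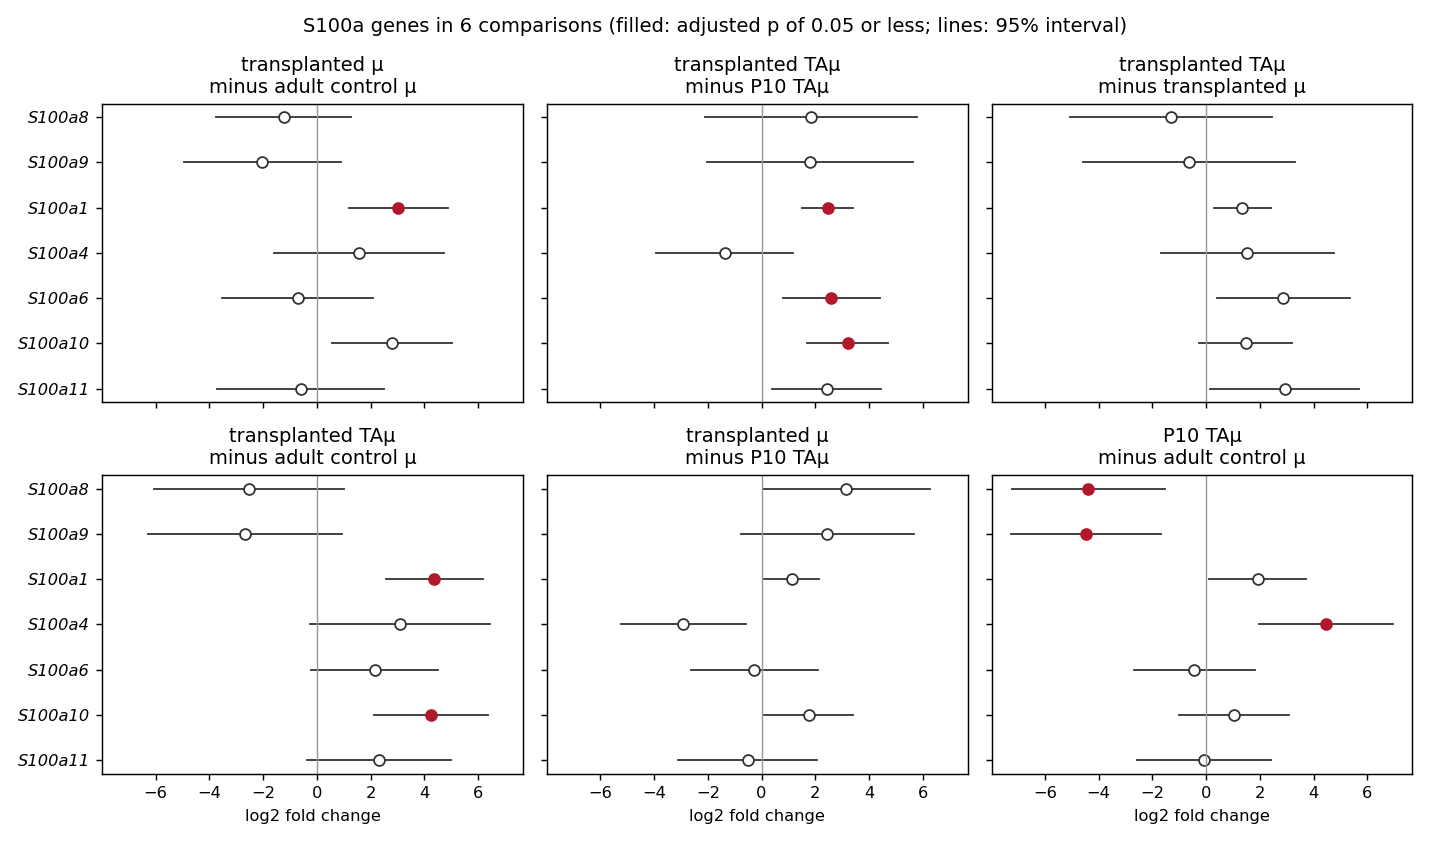
Log2 fold change (horizontal axis) of the 7 genes in the 6 comparisons, first-named group minus second. Points are the fold changes of the authors' deposited table, lines their recovered 95% intervals, and filled points have an adjusted p of 0.05 or less. S100a8 and S100a9 have filled points in P10 TAµ minus adult control µ, and S100a8 in transplanted TAµ minus P10 TAµ has an interval from -2.10 to 5.80.

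S100a4 went the other way from the calprotectin genes between the controls. It encodes a binder of non-muscle myosin that is known from fibroblasts, migrating leukocytes and tumour cells. Its log2 level was 1.59 ± 0.43 in P10 TAµ, 0.23 ± 1.14 in transplanted TAµ, -1.31 ± 1.02 in transplanted µ and -2.87 ± 1.11 in adult control µ. It rose by 4.47 ± 1.19 in P10 TAµ over adult control µ (adjusted p = 0.00769), a 22.1-fold difference in the authors' deposited table. Its level in adult control µ was its lowest and had the wide SE of 1.11. By average expression the gene stood at percentile 17.3 of all genes. Transplanted µ differed from P10 TAµ by -2.90 ± 1.11 (adjusted p = 0.0712), and transplanted TAµ differed from P10 TAµ by -1.37 ± 1.21, with an adjusted p of 0.428 in the authors' deposited table. Against adult control µ, transplanted µ differed by 1.56 ± 1.51 (adjusted p = 0.476) and transplanted TAµ by 3.10 ± 1.59, with an adjusted p of 0.148 in the authors' deposited table. The transplanted fractions differed by 1.54 ± 1.53 (adjusted p = 0.592), TAµ minus µ in the authors' deposited table.

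The difference between the transplant effects, transplanted TAµ minus P10 TAµ less transplanted µ minus adult control µ, was tested with the recovered errors. It carries the age difference of the controls. In this limma-type test 0 of the 7 members passed an adjusted p of 0.05, against 12.9% of 13710 genes in either direction, 3.54% higher and 9.37% lower, and 0 had an unadjusted p under 0.05, against 29.1% of genes. The estimates were 3.31 ± 1.59 for S100a6 (adjusted p = 0.175), 3.83 ± 2.3 for S100a9 (adjusted p = 0.281), 3.08 ± 2.24 for S100a8 (adjusted p = 0.378) and 3.02 ± 1.77 for S100a11 (adjusted p = 0.270). S100a4 had an estimate of -2.93 ± 1.94 (adjusted p = 0.330). Those of S100a1 and S100a10 were -0.57 ± 0.99 (adjusted p = 0.731) and 0.42 ± 1.28 (adjusted p = 0.855). The 95% interval of S100a6 ran from -0.03 to 6.65, so a difference of several log2 units was not resolved.

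Of the other S100 genes, S100a13, S100a16 and S100b had a row. S100b, an astrocyte gene on chromosome 10 that overlaps Dip2a in the annotation, had a log2 level of 6.76 ± 0.35 in transplanted TAµ, 4.92 ± 0.38 in transplanted µ, 2.29 ± 0.46 in P10 TAµ and 2.22 ± 0.94 in adult control µ. It rose by 4.47 in transplanted TAµ over P10 TAµ (adjusted p = 2.99e-05), by 4.54 over adult control µ (adjusted p = 0.00281) and by 1.84 over transplanted µ (adjusted p = 0.0396) in the authors' deposited table. Transplanted µ rose by 2.63 over P10 TAµ (adjusted p = 0.00443) and stood 2.70 above adult control µ without a call (adjusted p = 0.0651) in the authors' deposited table. S100a16 rose by 4.44 ± 1.48 in transplanted TAµ (adjusted p = 0.0310) and by 3.86 ± 1.27 in P10 TAµ (adjusted p = 0.0245), each over adult control µ in the authors' deposited table. These comparisons share the adult control libraries.

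Astrocyte markers moved with S100a1, S100a10 and S100b. All 11 listed had a row, and 10 rose in transplanted TAµ over adult control µ, 9 in transplanted TAµ over P10 TAµ and 8 in transplanted µ over adult control µ, with 0 falling in the authors' deposited table. Of all genes, 16.7%, 10.5% and 11.3% rose in these comparisons. The log2 of their summed level was 12.04 in transplanted TAµ, 10.98 in transplanted µ, 8.83 in adult control µ and 8.67 in P10 TAµ. The largest part of that sum is Slc1a2, a glutamate transporter gene, at log2 levels of 11.57, 10.47, 8.01 and 7.64 in that order. The median log2 level of the 11 was 6.37, 5.05, 2.78 and 4.72 in the same order, with P10 TAµ above adult control µ. Slc1a2 rose by 3.93 in transplanted TAµ over P10 TAµ and by 2.45 ± 0.52 in transplanted µ over adult control µ in the authors' deposited table. Between the transplanted fractions 1 rose, Gfap, by 1.66 ± 0.48 in TAµ in the authors' deposited table. Of all genes, 3.56% rose and 2.93% fell between the fractions. In transplanted µ over P10 TAµ 5 rose and 0 fell, and in P10 TAµ against adult control µ 3 rose and 1 fell in the authors' deposited table. In the former, 7.63% of all genes rose and 12.6% fell. In the latter, 23.2% of all genes rose and 12.5% fell, near the counts of 3 and 1 among 11. Neuron markers rose for 9 of 11 genes in transplanted TAµ over adult control µ, 4 over P10 TAµ, and 5 in transplanted µ over adult control µ in the authors' deposited table. Oligodendrocyte markers rose for 6 of 10, 3 of 10 and 4 of 10 in the same comparisons, and 0 of either list fell in them in the authors' deposited table, beside the same shares of all genes. In P10 TAµ over adult control µ 7 neuron and 4 oligodendrocyte markers rose, and 0 of either list fell. Of all genes, 23.2% rose and 12.5% fell there. In transplanted µ against P10 TAµ 2 neuron markers rose and 3 fell, and 3 oligodendrocyte markers rose and 1 fell. Of all genes, 7.63% rose and 12.6% fell there. Between the fractions 0 neuron markers were called and 1 oligodendrocyte marker rose in TAµ, beside 3.56% of all genes. The part of these cells or their RNA in the S100a1 and S100a10 values was not tested.

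**Figure D4:**
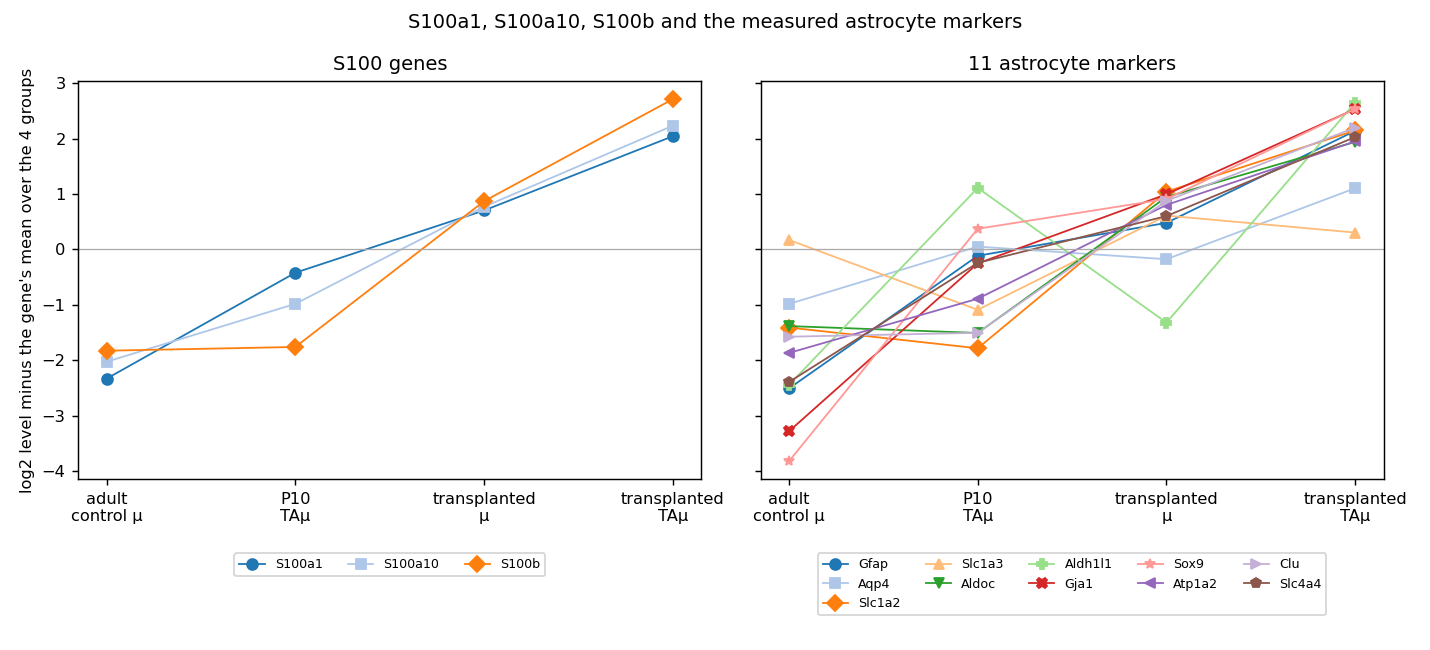
Log2 level of each gene minus its own mean over the 4 groups (vertical axis, log2 units), for S100a1, S100a10 and S100b on the left and the 11 measured astrocyte markers on the right. Lines join the groups of 1 gene to guide the eye. All 3 S100 genes and 10 of the 11 markers stand highest in transplanted TAµ, the exception being Slc1a3.

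Markers of monocytes, which carry S100a4, S100a6 and S100a8, had rows for 11 of 12 genes. Their summed log2 level was 8.47 in transplanted TAµ, 5.25 in P10 TAµ, 4.75 in transplanted µ and 4.50 in adult control µ. In transplanted TAµ most of the sum is Itga4, at a log2 level of 7.88, and F13a1, at 6.44. The median log2 level of the 11 genes was 1.64 there, 1.09 in P10 TAµ, -0.09 in transplanted µ and -0.89 in adult control µ. In transplanted TAµ over P10 TAµ 4 rose and 1 fell in the authors' deposited table. Itga4, an integrin gene, rose by 5.0 and the clotting factor gene F13a1 by 2.82 ± 0.38, while the proteoglycan gene Vcan fell by 3.87 ± 1.33 in the authors' deposited table. In P10 TAµ over adult control µ 4 rose, with Vcan at 5.42 ± 1.18 and Plac8 at 5.50 ± 1.23, and 1 fell, Ifitm6, at -3.74 ± 1.2 in the authors' deposited table. In P10 TAµ over adult control µ, 23.2% of all genes rose and 12.5% fell, near these counts of 4 and 1 among 11. In transplanted TAµ over P10 TAµ, 10.5% of all genes rose and 15.3% fell, so there a larger share of the 11 rose. In transplanted TAµ 3 rose and 0 fell over transplanted µ, and 3 rose and 1 fell over adult control µ in the authors' deposited table. Of all genes, 3.56% rose and 2.93% fell in the former, and 16.7% rose and 13.4% fell in the latter. In transplanted µ 0 rose and 1 fell against adult control µ, and 1 rose and 2 fell against P10 TAµ in the authors' deposited table. The shares of all genes were 11.3% and 10.5% in the former, and 7.63% and 12.6% in the latter. Pericyte and fibroblast markers are of interest beside S100a4, and 5 of 7 had a row. In P10 TAµ over adult control µ 4 of the 5 rose and 1 fell in the authors' deposited table. Of all genes, 23.2% rose and 12.5% fell there. Against P10 TAµ, 4 of the 5 fell in transplanted TAµ and 3 fell in transplanted µ, and 0 rose. In these, 15.3% and 12.6% of all genes fell, and S100a4 was not called. Against adult control µ 0 rose and 1 fell in each transplanted group, and between the fractions 0 were called. The markers' median log2 level was 0.98 in P10 TAµ, -1.39 in transplanted µ, -1.70 in adult control µ and -2.89 in transplanted TAµ. Border macrophage markers, with which the monocyte list shares F13a1, had rows for 8 of 8 genes. In transplanted TAµ 5 of them rose over P10 TAµ, 7 over transplanted µ and 7 over adult control µ, with 0 falling in the authors' deposited table. Of all genes, 10.5%, 3.56% and 16.7% rose in these comparisons, and 15.3%, 2.93% and 13.4% fell. The part of any of these cells in the values of the members was not tested.

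Partners and receptors of S100 proteins had rows for 17 of 22 genes. In P10 TAµ against adult control µ 10 rose and 1 fell, in transplanted TAµ against adult control µ 8 rose and 0 fell, and in transplanted µ against adult control µ 5 rose and 0 fell in the authors' deposited table. Of all genes, 23.2% rose and 12.5% fell in the first of these, 16.7% and 13.4% in the second, and 11.3% and 10.5% in the last. In transplanted TAµ against P10 TAµ 4 rose and 1 fell, between the transplanted fractions 4 rose in TAµ and 0 fell, and in transplanted µ against P10 TAµ 1 rose and 2 fell in the authors' deposited table. In these, 10.5%, 3.56% and 7.63% of all genes rose, and 15.3%, 2.93% and 12.6% fell. Cd36, a scavenger receptor that binds calprotectin with arachidonic acid, rose by 2.36 ± 0.35 in transplanted TAµ over P10 TAµ and by 4.04 ± 1.04 in transplanted µ over adult control µ in the authors' deposited table. Anxa5, an annexin that binds phosphatidylserine, rose by 1.65 ± 0.25 and by 1.78 ± 0.39 in the same comparisons in the authors' deposited table. Tlr4, the receptor of calprotectin, rose by 0.67 ± 0.20 in transplanted µ over P10 TAµ and was called in no other comparison in the authors' deposited table. The partners of S100a10 were named for that role after their values were seen. Anxa2 differed by -2.29 in transplanted TAµ against P10 TAµ without a call and rose by 3.44 ± 1.16 in P10 TAµ over adult control µ in the authors' deposited table. Ahnak rose by 2.81 in transplanted TAµ over P10 TAµ and by 6.41 ± 1.29 over adult control µ, where S100a10 rose too in the authors' deposited table. It also rose by 5.60 in transplanted TAµ over transplanted µ and by 3.60 in P10 TAµ over adult control µ, where S100a10 was not called in the authors' deposited table.

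For the 6 members with a call, which leaves out S100a11, the genes whose 4 group levels lay closest after centring were sought. The search covered 9556 genes at or above the first quartile of average expression, without predicted genes, unnamed clones and the members. The distance is Euclidean, in log2 units, over 4 groups. For S100a8 they were St14, a membrane serine protease gene, at 0.40, Camp at 0.59 and Lcn2 at 0.69. For S100a9 they were Arhgap22 at 0.77, Lcn2 at 0.85 and Col6a3, a collagen gene, at 0.90. For S100a1 they were the bicarbonate transporter gene Slc4a4, one of the astrocyte markers, at 0.21, Dlgap3 at 0.26 and Cyfip2 at 0.27. Dlgap3 and Cyfip2 are on no marker list used here. For S100a10 they were Slitrk2 at 0.15, Cpe at 0.20 and Kcnab2 at 0.30, none of them on a marker list. For S100a4 they were Plec, the gene of the cytolinker plectin, at 0.32, D17H6S56E-5 at 0.34 and Ptprg at 0.41. For S100a6 they were Iqgap1, a cytoskeletal scaffold gene, at 0.39, Sgip1 at 0.40 and Nedd9 at 0.41. The distances take no account of the SEs of the levels, which for S100a8 ran from 0.74 to 1.51. The ranks of near genes are therefore descriptive and were not tested.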

How the data were processed

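RNA of sorted brain myeloid cells was isolated, amplified by an Ovation kit that is not stated to keep strand, and sequenced, per the labels' protocols. The submitters' processing notes name STAR 2.3.0, HTSeq 0.5.3, limma and the build mm10. How values were normalized, which genes were filtered and which annotation was used is not given in the sources used here. The 1 deposited table gives, on the log2 scale, each gene's average expression and its fold changes. The authors' p-values, raw and adjusted, stand beside them, per the file headers. The score columns that the authors deposited are a moderated F and a sign for each called gene.

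The sign was settled from 10 proliferation genes, all called with the higher level at P10 against the adult control once the first-named group is read as positive. An SE was recovered as the fold change over the t value of its p, using 18.0 degrees of freedom, the median that F and its p gave in 6481 genes. Group variances were solved from the 6 comparisons, and for most genes their sums were between 0.999 and 1.00 times the pairwise variances. A p under 3e-07 was too coarsely rounded to give an SE, which left 59 genes out of the difference test. The 4 levels of a gene were solved from its average over 17 libraries and its fold changes, which is exact where the libraries of a group carry equal weight. With 17 libraries the lowest 1% of levels in transplanted TAµ spanned 0.087, with 3 libraries in each group 1.09. The steps were tested on simulated data fitted with limma 3.58.1 in R 4.3.3, and run in Python 3.11.15 with scipy 1.17.1. The simulated libraries of a group had equal weights, so the simulation cannot show the error of the levels where weights differ. Totals per library were not analysed here, and the recovered SEs give the precision.

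Members and lists were chosen with earlier results of these data known. Named genes are the members, the other S100 genes, up to 2 genes a list and direction, by smallest adjusted p, and the 3 nearest in pattern. Spi1, Chil3, Mcemp1 and Wfdc21 were matched by an older symbol. Alternatives were a threshold of 0.01, a minimum log2 fold change of 1, Bonferroni adjustment, an expression filter at the first quartile of 0.88, centring on the median, the residual degrees of freedom, and averages over 3 libraries in each group. Promoter sequences are RefSeq's. P-values measure the spread between libraries, which the labels do not tie to separate mice.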

Additional observations from a re-analysis of the deposited data

How the results depend on the processing

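No paired analysis was possible because the table holds no values per library, and for that reason no library could be left out in turn. The titles give the transplanted µ and TAµ libraries the same letters, so they may be pairs, but the pairwise variances in the table add up as in a fit without pairing. The minimum log2 fold change of 1, the residual degrees of freedom and averages over 3 libraries in each group changed no count of called members and no derived level beyond its 95% interval, although the last moved the levels of S100a8 by -0.69 and of S100a4 by 0.64 in all groups alike. At a threshold of 0.01, the members called numbered 0 for transplanted µ against adult control µ and 1, S100a4, for P10 TAµ against adult control µ. That threshold left 2 of 3 called between transplanted TAµ and P10 TAµ, without S100a6, whose single call it was. With Bonferroni adjustment 0 members were called in any of the 4 comparisons that had calls. The expression filter removed S100a4, S100a10 and S100a11, which left 1 member called for transplanted TAµ against adult control µ, 2 of 3 against P10 TAµ, and 2 of 3 for P10 TAµ against adult control µ. Centring subtracted from all genes a median of 0.19, -0.33, -0.02, 0.09, -0.29 and 0.41 in the order of transplanted µ and transplanted TAµ against their controls, TAµ against µ, transplanted TAµ against adult control µ, transplanted µ against P10 TAµ, and P10 TAµ against adult control µ. After centring, 1 member, S100a1 at 1.42 (adjusted p = 0.0436), was called for transplanted µ against P10 TAµ, S100a6 turned to 0.023 there (adjusted p = 0.995), and S100a11 joined the calls for transplanted TAµ against P10 TAµ. Depth per library is unknown from the table, and the wide errors of S100a8, S100a9 and S100a4 limit what their comparisons can show.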
